A study of Mus musculus with 12 samples.

Results

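Histone lysine methyltransferases, lysine demethylases and 2 subunits of methyltransferase complexes were followed in mouse neural stem cells, in a list of 40 genes. The list leaves out Kdm6b, the gene of the demethylase JMJD3 that the study targeted. Probes were assigned to the list by the gene name printed in the array files, and Kdm7a and Kdm8 were found under the older names Jhdm1d and Jmjd5. In all, 39 of the 40 genes had a probe, 61 probes in total, and Setd1b was not analysed here. The representative probe of each of the 39 genes was well above background on all 12 arrays, so the filter on dim probes removed none of them. They were tested among 24149 genes.

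These enzymes add methyl groups to lysines of the histone tails and core or take them off, and each acts on a few lysines only. Methylation of lysine 4, 36 or 79 of histone H3 is a hallmark of active genes, while the higher methylated forms of lysine 9 of H3 and lysine 20 of H4 are typical of silent and compacted chromatin. In the developing cortex these enzymes are known for setting which genes a stem cell keeps active as it divides or differentiates. JMJD3 itself demethylates lysine 27 of H3.

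The cells came from cerebral cortex of mouse embryos at stage E12.5 and were stably transfected with an shRNA, a short hairpin RNA that lowers 1 transcript. The 4 groups of 3 arrays were knockdown cells with TGFb, knockdown cells with vehicle, control cells with TGFb and control cells with vehicle. The knockdown cells carried an shRNA labelled sh2 JMJD3 and the control cells a random shRNA, and transforming growth factor beta (TGFb) was given at 5 ng/ml for 2.5 h. The labels name 1 shRNA against JMJD3 and do not say whether replicates were separate cultures, so p-values cover the spread of these 3 samples a group, and that spread may be technical.

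The arrays had 70.3% to 78.4% of probes well above background and no saturated spots (0 on each). The targeted gene Kdm6b (probe at chr11:69212177-69212236, mm9) was 2.63-fold lower in knockdown than in control cells with TGFb (log2 difference -1.40 ± 0.05 SE, adjusted p = 2.85e-08). With vehicle it was 2.24-fold lower (-1.16 ± 0.05, adjusted p = 1.06e-07). All 8 markers of neural stem cells and radial glia were well above background on all 12 arrays, and other cell types' markers were in part detected too. Of the neuronal markers 4 of 5 passed the filter, of the microglial 3 of 4, of the endothelial 2 of 3 and of the fibroblast markers 2 of 4. The 3 astrocyte and 4 oligodendrocyte markers all passed, while Slc17a7, Aif1 and Cdh5 of the first 3 lists were well above background on 0 arrays. The stem cell markers moved with the knockdown in both directions: 3 of 8 rose and 1 fell with TGFb, and 3 rose and 2 fell with vehicle. Their summed signal, in multiples of the array's 75th percentile, ran from 256 to 277 in knockdown cells and from 230 to 254 in control cells with TGFb, so these groups did not overlap. With vehicle it ran from 236 to 264 in knockdown cells and from 245 to 263 in control cells. Of the neuronal markers tested 1 of 4 rose and 2 fell under each treatment, and their summed signal overlapped between the lines under each. It averaged 3.07 in knockdown and 2.89 in control cells with TGFb, and ran from 2.92 to 3.05 in knockdown and from 2.70 to 3.82 in control cells with vehicle. Of the 3 astrocyte markers only Gfap was called. It rose by 0.50 ± 0.11 on the log2 scale with TGFb (adjusted p = 0.00404) and by 0.98 ± 0.11 with vehicle (adjusted p = 4.42e-05), while Aqp4 was at -0.18 and -0.05. The astrocyte sum was 1.10 to 1.17 in knockdown and 0.912 to 1.07 in control cells with TGFb, which were apart, and it overlapped with vehicle. The oligodendrocyte sum was apart under both treatments, at 0.416 to 0.474 in knockdown and 0.318 to 0.407 in control cells with TGFb and 0.403 to 0.501 in knockdown and 0.299 to 0.399 in control cells with vehicle. Of its 4 markers 0 were called with TGFb and 1 rose with vehicle. The fibroblast sum was low and lower in knockdown cells, at 0.0314 to 0.0344 against 0.0383 to 0.0475 with TGFb and 0.0164 to 0.0186 against 0.0225 to 0.0230 with vehicle. Microglial and endothelial sums overlapped between the lines. The part of these marker changes in the results below was not tested. Bulk RNA cannot tell fewer cells of a type apart from less RNA per cell.

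Knockdown of JMJD3 went with changes in both directions among these enzymes, and most were small. Setd8 rose, Setd7 fell, Phf2 and Dot1l rose and Kdm1b fell, each under vehicle and under TGFb. With TGFb 15 of the 39 genes passed an adjusted p of 0.05, 7 higher and 8 lower in knockdown cells, where 29% of all genes did. With vehicle 13 of 39 passed, 5 higher and 8 lower, against 27.8% of all genes. Of all the genes called, 41.5% were higher with TGFb and 44.9% with vehicle. These shares lie near the background. The median log2 difference of the 39 genes was 0.02 with TGFb and -0.02 with vehicle, against -0.01 and -0.02 over all genes. Without regard to sign the medians were 0.15 and 0.14, against 0.20 and 0.17 over all genes.

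The pair of knockdown comparisons share no array. They had 10 called genes in common, and all 10 changed in the same direction. That is 66.7% of the genes called with TGFb and 76.9% of those called with vehicle, beside 74.4% and 77.4% for all genes. Arrays of knockdown and control cells did not overlap for 20 of 39 genes with TGFb and for 16 with vehicle, where 38.7% and 41.1% of all genes did not. Of the 39 genes only Setd8 changed by 2-fold or more in any comparison, and it did so with TGFb. Such changes were rare over all 24149 genes too, where knockdown gave 453 calls of 2-fold or more with TGFb and 460 with vehicle. The slides hold arrays of several groups each. All 15 calls with TGFb kept their sign on both slides that held arrays of both lines. All 13 calls with vehicle kept it on all 3 such slides. For 14 of the 15 and all 13 the lines did not overlap, which fixes the sign on each slide in advance. The agreement is therefore no separate check on slide.

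**Figure D1:**
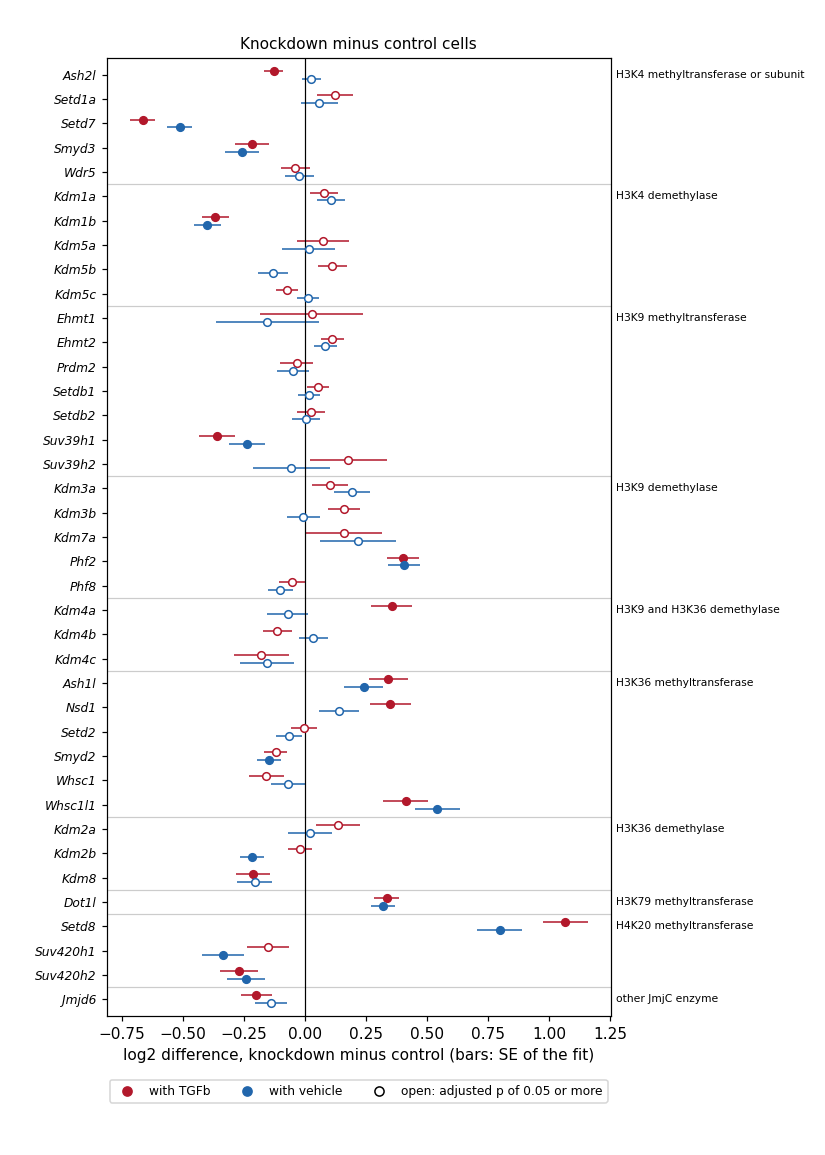
Log2 difference of knockdown minus control cells for the 39 genes, with TGFb (red) and with vehicle (blue). Bars are the SE of the fit, filled points passed an adjusted p of 0.05, and the genes are ordered by the residue they act on. Setd8 lies farthest to the right and Setd7 farthest to the left in both comparisons.

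The enzymes of lysine 20 on histone H4 held the largest change. Setd8 (now Kmt5a), which places the single methyl group on this lysine, rose. Suv420h2 (now Kmt5c), which builds that mark up to the trimethylated form of heterochromatin, fell. Suv420h1 (now Kmt5b), its paralogue, fell with vehicle by its brightest probe, while its other probes rose.

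Signals are given as log2 of the value over its array's 75th percentile. Setd8 was 1.73, 1.71 and 1.69 in knockdown cells with TGFb and 0.78, 0.66 and 0.48 in control cells with TGFb. With vehicle it was 1.56, 1.77 and 1.75 in knockdown cells and 0.71, 1.00 and 0.98 in control cells. All 6 knockdown arrays lay above all 6 control arrays. The difference was 1.07 ± 0.09 with TGFb (SE, 2.09-fold, adjusted p = 9.24e-06) and 0.80 ± 0.09 with vehicle (1.74-fold, adjusted p = 7.24e-05). With slide as a block the values were 1.13 ± 0.05 and 0.80 ± 0.05. A second probe of the gene rose by 0.84 ± 0.07 with TGFb and by 0.72 ± 0.07 with vehicle. TGFb did not give a call for Setd8 in knockdown cells (0.02 ± 0.09) or control cells (-0.25 ± 0.09), but with slide as a block it fell in control cells (-0.28 ± 0.05, adjusted p = 0.00554).

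The starts of the Setd8 probes are shown because both rose with knockdown, from separate places on chromosome 5. They lie at chr5:124911883-124911942 and at chr5:124897355-124900704 (mm9, plus strand). The second place spans more than the probe's own 60 bases. Each line gives the first 30 of 60 bases, 5′ to 3′, with none marked in capitals.
Setd8 probe 1: actagggtacctggcagccggcagagaacc
Setd8 probe 2: gctggaatctacaggaagcgagaagagaaa

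Suv420h2 was 3.02, 2.83 and 2.90 in knockdown cells with TGFb, against 3.26, 3.29 and 3.01 in control cells with TGFb. Vehicle values were 3.15, 3.32 and 3.27 in knockdown cells and 3.46, 3.46 and 3.54 in control cells. The knockdown arrays lay lower, and with TGFb 1 knockdown array overlapped the control range. The fall was -0.27 ± 0.08 with TGFb (adjusted p = 0.0228) and -0.24 ± 0.08 with vehicle (adjusted p = 0.0387). Both calls rested on single arrays. The first ended without TGFb knockdown replicate 2 or 3 or TGFb control replicate 1 or 2 (adjusted p up to 0.0974). The second ended without vehicle knockdown replicate 1 or 3, any 1 of the 3 vehicle control arrays or TGFb knockdown replicate 3 (adjusted p up to 0.138).

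Suv420h1 by its brightest probe was -2.61, -2.36 and -2.38 in knockdown cells with TGFb and -2.26, -2.32 and -2.33 in control cells with TGFb. Under vehicle, knockdown cells had -2.50, -2.67 and -2.53, and control cells had -2.12, -2.36 and -2.21. That is a fall of -0.34 ± 0.09 with vehicle (adjusted p = 0.0121, and 0.0524 without vehicle knockdown replicate 2) and a difference of -0.15 ± 0.09 with TGFb that was not called (adjusted p = 0.219).

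Both other probes of Suv420h1 went the other way. The probe at chr19:3816303-3816362 was -2.24, -2.34 and -2.35 in knockdown cells with TGFb and -2.74, -2.61 and -2.78 in control cells with TGFb. In vehicle, its signal was -2.37, -2.18 and -2.18 in knockdown cells and -2.83, -2.78 and -2.59 in control cells. No knockdown array of this probe fell into the control range. In the fit over probes it rose by 0.40 ± 0.08 with TGFb (adjusted p = 0.00344) and by 0.49 ± 0.08 with vehicle (adjusted p = 0.00102). The probe at chr19:3815371-3815430 rose by 0.46 ± 0.14 and 0.42 ± 0.14 (adjusted p = 0.0279 and 0.043). The direction for Suv420h1 therefore depends on the probe.

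The 3 Suv420h1 probes are shown because they disagree in sign. Probe 1, the brightest, lies at chr19:3806255-3806314, and probes 2 and 3 lie at the places just named, downstream on the plus strand (mm9). Each line gives the first 30 of 60 bases, 5′ to 3′.
Suv420h1 probe 1: ccctcttgtcctctgagggtttgtgtgttc
Suv420h1 probe 2: agaatgattggtgcttattttttcaaacct
Suv420h1 probe 3: gaggtggacgactacagtcaatatgaggag

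Among genes acting on lysine 4 of histone H3, Setd7 and Kdm1b fell in both knockdown comparisons. Of the 5 methyltransferases or subunits tested, 3 fell with TGFb and 2 with vehicle, and none (0) rose, beside 29% and 27.8% of all genes called. The calls among these other than Setd7, those of Smyd3 and Ash2l, ended when single arrays were left out. Of the 5 lysine 4 demethylases, Kdm1b fell in both comparisons and the other 4 were not called.

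Setd7, which places a single methyl group on lysine 4 and also methylates other proteins, had the smallest adjusted p of the list. It was 1.76, 1.71 and 1.68 in knockdown cells with TGFb and 2.31, 2.47 and 2.37 in control cells with TGFb. With vehicle it was 1.65, 1.76 and 1.60 in knockdown cells and 2.18, 2.20 and 2.18 in control cells. All 6 knockdown arrays lay below all 6 control arrays. The difference was -0.67 ± 0.05 with TGFb (1.59-fold lower, adjusted p = 3.97e-06) and -0.51 ± 0.05 with vehicle (1.43-fold lower, adjusted p = 2.66e-05). It kept these values with slide as a block, at -0.65 ± 0.06 and -0.51 ± 0.05.

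Kdm1b, a flavin-dependent demethylase of lysine 4 known in mouse for its role in oocytes, was 0.70, 0.82 and 0.71 in knockdown cells with TGFb and 1.00, 1.14 and 1.19 in control cells with TGFb. Vehicle values were 0.60, 0.61 and 0.57 in knockdown cells and 1.03, 0.94 and 1.01 in control cells. No knockdown array reached the control range. The difference was -0.37 ± 0.05 with TGFb (adjusted p = 0.000423) and -0.40 ± 0.05 with vehicle (adjusted p = 0.00024). Its better known paralogue Kdm1a, the demethylase of the CoREST complex, differed by 0.08 ± 0.06 and 0.11 ± 0.06 and was not called.

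Smyd3, a SET and MYND domain protein first described as a lysine 4 methyltransferase, was -2.71, -2.69 and -2.66 in knockdown cells with TGFb and -2.43, -2.48 and -2.51 in control cells with TGFb. Under vehicle, knockdown cells had -2.63, -2.67 and -2.54, and control cells had -2.50, -2.30 and -2.26. The lines did not overlap within either treatment. The falls of -0.22 ± 0.07 (adjusted p = 0.0382) and -0.26 ± 0.07 (adjusted p = 0.0169) each rested on single arrays. The first ended without any 1 of the 6 arrays with TGFb or vehicle knockdown replicate 1 (adjusted p up to 0.102), and the second without vehicle knockdown replicate 1 or 2 or vehicle control replicate 2 or 3 (adjusted p up to 0.0768). Of its other probes, 1 fell with TGFb (-0.24 ± 0.06, adjusted p = 0.0158) and none (0) was called with vehicle.

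Ash2l, a shared subunit of the MLL and SET1 complexes, was 2.47, 2.42 and 2.48 in knockdown cells with TGFb and 2.52, 2.60 and 2.63 in control cells with TGFb. In vehicle, its signal was 2.57, 2.53 and 2.53 in knockdown cells and 2.53, 2.50 and 2.52 in control cells. It fell by 0.13 on the log2 scale with TGFb (-0.13 ± 0.04, adjusted p = 0.0279), and the call ended without replicate 2 or 3 of either TGFb group (adjusted p up to 0.101). Its other probe differed by -0.04 ± 0.05. Wdr5, another shared subunit, and Setd1a, a catalytic subunit, were not called.

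Enzymes of lysine 9 on histone H3 were mostly not called, as were most of all genes. Calls covered 14.3% of the methyltransferases and 20% of the demethylases under each treatment. Over all genes these shares were 29% with TGFb and 27.8% with vehicle. Suv39h1 fell and Phf2 rose in both comparisons, and of the remaining 6 methyltransferases and 4 demethylases of lysine 9 none (0) was called in either. With slide as a block Kdm3a rose with vehicle (0.19 ± 0.04, adjusted p = 0.00399) and Ehmt2 rose with TGFb (0.15 ± 0.04, adjusted p = 0.015). The Kdm4 enzymes, which take methyl groups off both lysine 9 and lysine 36, are described with the probes below.

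Phf2, a demethylase of the JmjC class with a finger that reads methylated lysine 4, was -1.43, -1.22 and -1.32 in knockdown cells with TGFb and -1.79, -1.76 and -1.63 in control cells with TGFb. With vehicle it was -1.32, -1.42 and -1.39 in knockdown cells and -1.75, -1.76 and -1.84 in control cells. All knockdown arrays lay above all control arrays. The rise was 0.40 ± 0.07 under each treatment (1.32-fold, adjusted p = 0.000798 with TGFb and 0.000802 with vehicle). Its relatives Phf8 and Kdm7a were not called, at -0.05 ± 0.05 and 0.16 ± 0.16 with TGFb and -0.10 ± 0.05 and 0.22 ± 0.16 with vehicle.

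Suv39h1, which trimethylates lysine 9 in heterochromatin around centromeres, was -1.96, -2.07 and -1.93 in knockdown cells with TGFb and -1.71, -1.63 and -1.53 in control cells with TGFb. Vehicle values were -1.62, -1.71 and -1.88 in knockdown cells and -1.50, -1.47 and -1.52 in control cells. The lines did not overlap within either treatment, and the gap was wider with TGFb. The fall was -0.36 ± 0.07 with TGFb (adjusted p = 0.00337) and -0.24 ± 0.07 with vehicle (adjusted p = 0.032). The second value lost its call without vehicle knockdown replicate 2 or 3 or any 1 of the 3 vehicle control arrays (adjusted p up to 0.135), while the first kept it whichever of the 12 arrays was left out.

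**Figure D2:**
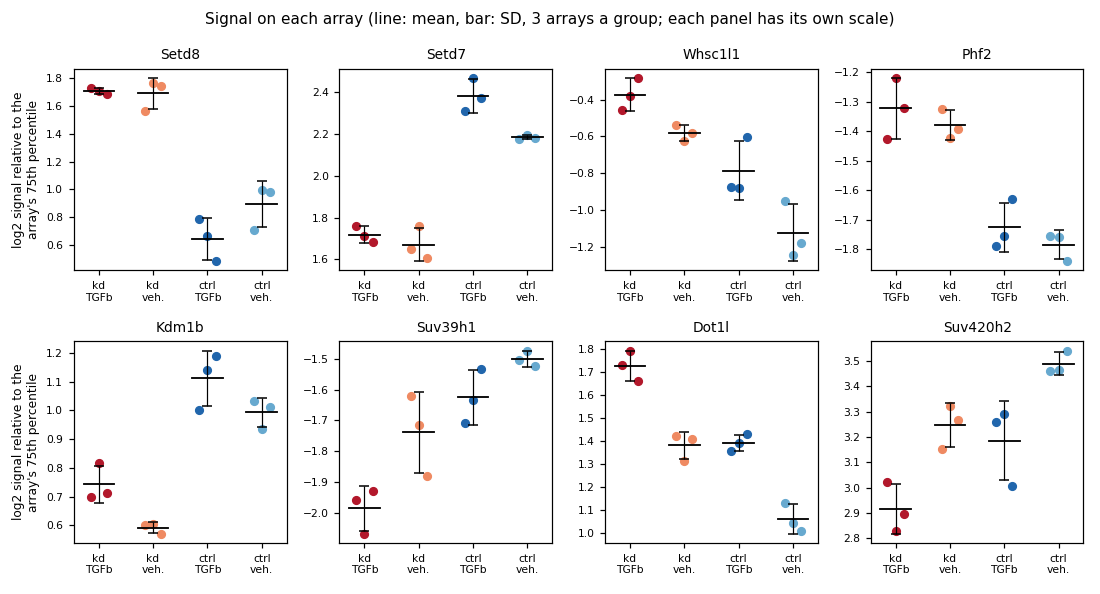
Log2 signal of 8 genes on each array, in the order knockdown with TGFb, knockdown with vehicle, control with TGFb, control with vehicle. Lines are means and bars SD of 3 arrays, and each panel has its own scale. Knockdown and control arrays are fully apart for Setd8, Setd7, Phf2 and Kdm1b, and Dot1l is higher both in knockdown cells and with TGFb.

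Of the 6 methyltransferases of lysine 36 on histone H3, 3 rose with TGFb, and 2 rose and 1 fell with vehicle, beside 29% and 27.8% of all genes called. For Nsd1 and Whsc1l1 the rise rests on the brightest probe: another probe of each fell with TGFb, and the mean of probes was not called (adjusted p = 0.862 and 0.651). Ash1l, Nsd1 and Whsc1l1 (now Nsd3) are related enzymes that give the dimethylated form, and Setd2, which alone gives most of the trimethylated form, was not called (-0.01 ± 0.05 with TGFb and -0.07 ± 0.05 with vehicle).

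Whsc1l1 by its brightest probe was -0.46, -0.38 and -0.28 in knockdown cells with TGFb and -0.87, -0.88 and -0.60 in control cells with TGFb. Under vehicle, knockdown cells had -0.54, -0.62 and -0.58, and control cells had -0.95, -1.24 and -1.18. All knockdown arrays lay above the control arrays of the same treatment. The rise was 0.41 ± 0.09 with TGFb (adjusted p = 0.00553) and 0.54 ± 0.09 with vehicle (adjusted p = 0.00105). Another probe of the gene differed by 0.04 ± 0.08 and -0.01 ± 0.08, and the dimmest fell with TGFb (-0.68 ± 0.22, adjusted p = 0.0354) and differed by 0.20 ± 0.22 with vehicle.

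Ash1l was -2.59, -2.59 and -2.80 in knockdown cells with TGFb and -3.11, -2.92 and -2.98 in control cells with TGFb. In vehicle, its signal was -2.85, -2.88 and -2.69 in knockdown cells and -3.03, -3.07 and -3.03 in control cells. The lines did not overlap within either treatment. It rose by 0.34 ± 0.08 with TGFb (adjusted p = 0.00821) and by 0.24 ± 0.08 with vehicle (adjusted p = 0.0484). The call with TGFb ended with normexp, median scaling and the authors' values (adjusted p = 0.0781, 0.105 and 0.113). The value with vehicle passed narrowly and was lost in 10 of 12 refits that left out 1 array, all but those without TGFb control replicate 1 or TGFb knockdown replicate 3 (adjusted p up to 0.187). Smyd2, which methylates lysine 36 and the tumour suppressor p53, fell with vehicle (-0.15 ± 0.05, adjusted p = 0.039) and was -0.12 ± 0.05 with TGFb, not called. Its call ended in 7 of 12 refits without 1 array (adjusted p up to 0.145).

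The 3 demethylases of lysine 36 gave 1 call in each knockdown comparison (33.3%), beside 29% of all genes with TGFb and 27.8% with vehicle. Kdm2b, a demethylase that also brings Polycomb proteins to CpG islands, was 3.61, 3.66 and 3.64 in knockdown cells with TGFb and 3.60, 3.75 and 3.61 in control cells with TGFb. With vehicle it was 3.65, 3.73 and 3.78 in knockdown cells and 3.95, 3.93 and 3.94 in control cells. The groups overlapped with TGFb and were apart with vehicle. By this brightest probe Kdm2b fell with vehicle (-0.22 ± 0.05, adjusted p = 0.00623) and differed by -0.02 ± 0.05 with TGFb. The call ended with median scaling (adjusted p = 0.182) and with the mean of probes. Its other probe averaged -0.51 in knockdown and -0.46 in control cells with vehicle, and -0.87 and -0.69 with TGFb. By that probe the lines overlapped under each treatment. Kdm8, reported as a lysine 36 demethylase, fell with TGFb (-0.21 ± 0.07, adjusted p = 0.0427) and had the same difference with vehicle (-0.21 ± 0.07, adjusted p = 0.0504). Jmjd6, a JmjC protein known as a lysyl hydroxylase, fell with TGFb (-0.20 ± 0.06, adjusted p = 0.036) and was -0.14 ± 0.06 with vehicle. The calls of Kdm8 and Jmjd6 ended in 8 and 6 of 12 refits without 1 array (adjusted p up to 0.162 and 0.137). With slide as a block both also fell with vehicle (-0.21 ± 0.05, adjusted p = 0.00879 for Kdm8, and -0.14 ± 0.05, adjusted p = 0.0423 for Jmjd6), and Kdm8 fell with TGFb in control cells (-0.22 ± 0.06, adjusted p = 0.0324).

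Dot1l, the methyltransferase of lysine 79 on histone H3, was called in 4 comparisons, as was Suv420h2. It rose with knockdown under both treatments and with TGFb in both lines. Its signal was 1.73, 1.79 and 1.66 in knockdown cells with TGFb and 1.42, 1.31 and 1.41 in knockdown cells with vehicle. In control cells it was 1.36, 1.39 and 1.43 with TGFb and 1.13, 1.04 and 1.01 with vehicle. Knockdown cells with TGFb were highest, control cells with vehicle were lowest, and the remaining groups overlapped. Knockdown minus control was 0.33 ± 0.05 with TGFb (adjusted p = 0.000469) and 0.32 ± 0.05 with vehicle (adjusted p = 0.000654). TGFb minus vehicle was 0.35 ± 0.05 in knockdown cells (adjusted p = 0.000835) and 0.33 ± 0.05 in control cells (adjusted p = 0.00104). The TGFb response of knockdown cells minus that of control cells was 0.01 ± 0.07, with a 95% interval of -0.14 to 0.17. The comparisons of knockdown and of TGFb share arrays, so these are not 4 separate pieces of evidence.

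Bases before the start of Setd8, Setd7 and Dot1l are shown because Setd8 and Setd7 had the largest rise and fall of the list with knockdown, and Dot1l rose with knockdown and with TGFb. They are RefSeq sequences of the build GRCm38.p6, cut where the gene's first annotated base begins, and they read 5′ to 3′ on the gene's strand. Capitals mark CAGAC, the core of the element that SMAD proteins of the TGFb pathway bind, and GGCGCC, another motif they bind, each searched on both strands. The motifs share no overlap in these stretches. CAGAC is in 42.2% of all 32851 promoters of the table over 250 bases, and GGCGCC in 9.59%. Over the 148 bases shown for Dot1l these shares are 28.4% and 4.81%. Setd7 held 1 of each, and Setd8 and Dot1l held 0. A match is a run of letters and no evidence of binding. The stretches lie at chr5:124439680-124439929 (plus strand), chr3:51560824-51561073 (minus strand) and chr10:80754953-80755100 (plus strand).
Setd8: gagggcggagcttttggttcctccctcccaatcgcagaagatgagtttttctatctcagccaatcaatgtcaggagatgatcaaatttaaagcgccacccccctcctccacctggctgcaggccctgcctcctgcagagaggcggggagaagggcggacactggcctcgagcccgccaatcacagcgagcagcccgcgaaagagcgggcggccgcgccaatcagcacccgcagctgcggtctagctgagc
Setd7: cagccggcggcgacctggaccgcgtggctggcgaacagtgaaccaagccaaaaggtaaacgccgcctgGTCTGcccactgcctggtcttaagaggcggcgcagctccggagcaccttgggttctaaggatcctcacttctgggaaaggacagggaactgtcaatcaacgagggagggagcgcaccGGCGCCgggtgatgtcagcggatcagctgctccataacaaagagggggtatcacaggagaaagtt
Dot1l: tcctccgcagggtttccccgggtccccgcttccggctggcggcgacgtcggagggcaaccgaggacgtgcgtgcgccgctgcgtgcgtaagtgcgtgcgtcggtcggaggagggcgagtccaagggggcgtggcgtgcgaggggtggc

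TGFb for 2.5 h gave few calls, among these genes as among all genes. In knockdown cells 3 of 39 (7.69%) passed, 1 higher and 2 lower, where 9.49% of all genes did. In control cells 6 of 39 (15.4%) passed, 3 higher and 3 lower, where 10.1% of all genes did. Of all the genes called, 49.9% and 53.5% were higher in knockdown and control cells. Dot1l rose and Suv420h2 fell in both lines, and by the brightest probes these were the only genes called in both. By the mean of probes Kdm2a and Kdm2b were also called in both lines, each lower with TGFb. Arrays with TGFb and with vehicle did not overlap for 12 of 39 genes in knockdown cells and 10 of 39 in control cells, against 24.1% and 22.1% of all genes. The median log2 difference was 0.01 in knockdown and -0.05 in control cells, against -0.02 and -0.01 over all genes. Slide 1 held only vehicle arrays and slide 4 only arrays with TGFb. TGFb and vehicle arrays met on 1 slide in knockdown cells and on 2 in control cells. Effects of TGFb are thus partly mixed with slide.

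The fall of Suv420h2 with TGFb was -0.33 ± 0.08 in knockdown cells (adjusted p = 0.0195) and -0.30 ± 0.08 in control cells (adjusted p = 0.0288). Values per array are given above, and arrays with TGFb and with vehicle did not overlap in either line. With slide as a block the fall was -0.22 ± 0.06 and -0.26 ± 0.05. The call in knockdown cells ended without replicate 2 or 3 of either knockdown group (adjusted p up to 0.0879). That in control cells ended without any 1 of the 3 vehicle control arrays or TGFb control replicate 3 (adjusted p up to 0.115).

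In control cells 4 further genes were called with TGFb. Kdm2b fell by 0.28 on the log2 scale (-0.28 ± 0.05, adjusted p = 0.00274) and Kdm4a fell by its brightest probe (-0.41 ± 0.08, adjusted p = 0.00717). The other Kdm4a probe differed by -0.06 ± 0.11 (adjusted p = 0.902), and the mean of probes was not called (adjusted p = 0.0586). Whsc1l1 rose (0.34 ± 0.09, adjusted p = 0.0384) and Setd7 rose (0.20 ± 0.05, adjusted p = 0.0307). The Setd7 and Whsc1l1 calls ended in 5 and 7 of 12 refits without 1 array (adjusted p up to 0.128 and 0.143), and the Setd7 call also ended with slide as a block (adjusted p = 0.0511).

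In knockdown cells Kdm4b, a demethylase of lysines 9 and 36, was 0.78, 0.75 and 0.67 with TGFb and 1.02, 1.02 and 0.91 with vehicle. In control cells it was 0.91, 0.93 and 0.71 with TGFb and 0.97, 0.95 and 0.92 with vehicle. The groups were apart in knockdown cells and overlapped in control cells. It fell in knockdown cells (-0.25 ± 0.06, adjusted p = 0.0242). With slide as a block this was -0.12 ± 0.06 and no longer called (adjusted p = 0.281). The call also ended without vehicle knockdown replicate 1 or 2 or TGFb knockdown replicate 2 or 3 (adjusted p up to 0.108).

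**Figure D3:**
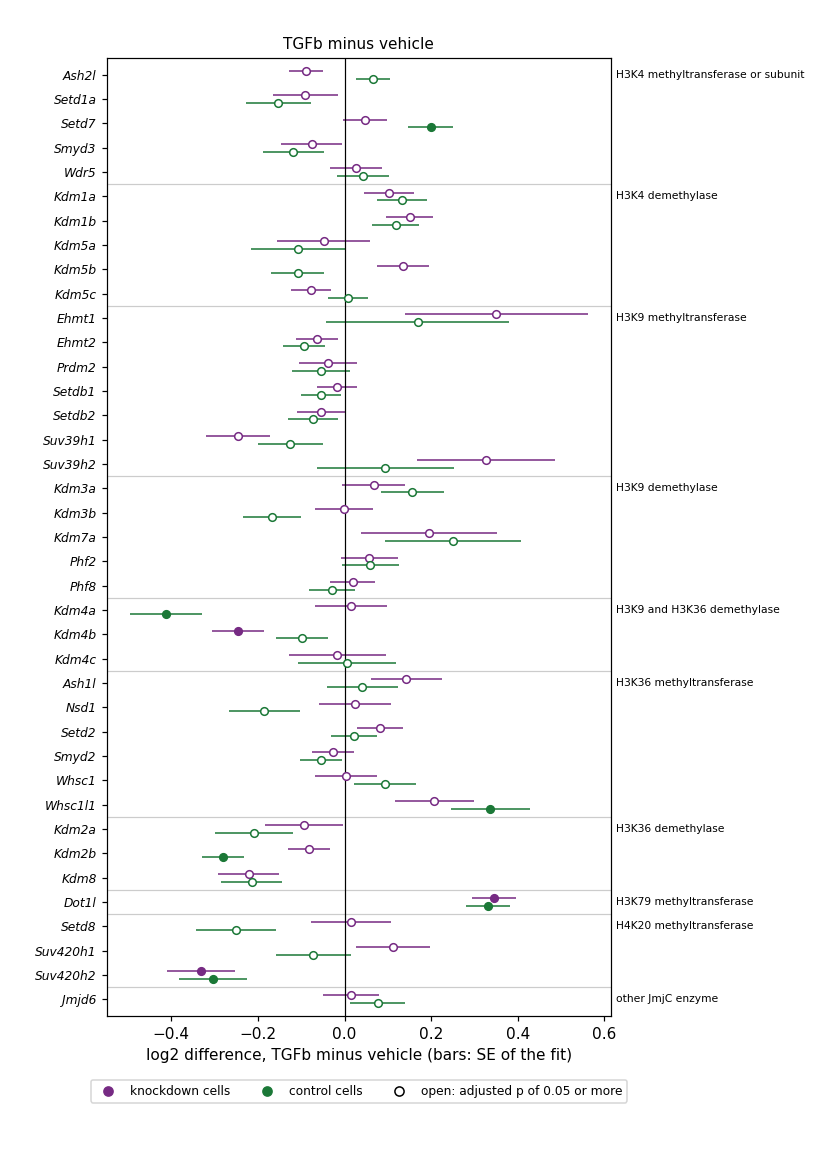
Log2 difference of TGFb minus vehicle for the 39 genes, in knockdown cells (purple) and control cells (green). Bars are the SE of the fit and filled points passed an adjusted p of 0.05. Dot1l is filled to the right and Suv420h2 to the left in both lines, and the widest bars belong to Ehmt1 and Suv39h2.

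The response to TGFb was not shown to differ between the lines for any of these genes. In limma's test of the difference 0 of 39 passed, where 0.087% of all genes (21) did. At an unadjusted p under 0.05 there were 4 of 39. That threshold is looser and no share of all genes is given for it, so this count shows no excess. The 4 were Kdm4a (0.43 ± 0.12, adjusted p = 0.457), Kdm5b (0.24 ± 0.08), Kdm2b (0.20 ± 0.07) and Ash2l (-0.15 ± 0.06). The interval for Kdm4a ran from 0.17 to 0.69 before adjustment. By the brightest probes, Kdm2b, Kdm4a, Setd7 and Whsc1l1 were called with TGFb in control cells only, and Kdm4b in knockdown cells only. These calls are thus not shown to be differences between the lines.

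Several genes are read by more than 1 probe, and the probes did not always agree. For 17 genes 21 further probes passed the filter. The knockdown effect, averaged over both treatments, was compared between the brightest and each other probe with an exact permutation test over all 400 relabellings of the lines within treatments. This test was chosen after the values were seen. It is two-sided, and the smallest p it can give is 0.005. For 6 of the 21 pairs the effects differed (adjusted p under 0.05 over the 21), in 4 genes: Kdm4a, Nsd1, Suv420h1 and Whsc1l1. In 5 of these 6 pairs the probes had opposite signs.

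Kdm4a, a demethylase of lysines 9 and 36, was 2.04, 2.11 and 2.13 by its brightest probe in knockdown cells with TGFb and 1.90, 1.64 and 1.68 in control cells with TGFb. Vehicle values were 1.95, 2.13 and 2.15 in knockdown cells and 2.17, 2.02 and 2.26 in control cells. The brightest probe rose with TGFb (0.35 ± 0.08, adjusted p = 0.00754) and was not called with vehicle (-0.07 ± 0.08).

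The other Kdm4a probe was -3.67, -3.79 and -3.78 in knockdown cells with TGFb and -3.25, -3.00 and -3.37 in control cells with TGFb. Under vehicle, knockdown cells had -3.67, -3.80 and -3.75, and control cells had -3.03, -3.34 and -3.07. All 6 knockdown arrays lay below all 6 control arrays by this probe. It fell by 0.54 with TGFb (-0.54 ± 0.11, adjusted p = 0.00272) and by 0.59 with vehicle (-0.59 ± 0.11, adjusted p = 0.00166). The probes' mean knockdown effects, 0.14 and -0.56, differed by 0.71 (exact permutation p = 0.005, adjusted p = 0.021).

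Nsd1 showed the same kind of split. Its brightest probe was 1.67, 2.00 and 1.91 in knockdown cells with TGFb and 1.53, 1.45 and 1.54 in control cells with TGFb. In vehicle, its signal was 1.78, 1.81 and 1.91 in knockdown cells and 1.72, 1.57 and 1.79 in control cells. Knockdown arrays were higher with TGFb (0.35 ± 0.08, adjusted p = 0.00777) and overlapped the control arrays with vehicle (0.14 ± 0.08). The other probe fell with TGFb (-0.32 ± 0.06, adjusted p = 0.00281) and differed by -0.12 ± 0.06 with vehicle. Mean effects of 0.24 and -0.22 differed by 0.46 (exact permutation p = 0.005, adjusted p = 0.021).

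For the remaining genes with several probes no difference in the mean effect was shown. Since the test averages both treatments, it can miss probes that differ within a treatment. Mean effects of the Kdm2b probes, -0.12 and -0.11 (exact permutation p = 0.98), are such averages. Setd8 probes had mean effects of 0.93 and 0.78 (exact permutation p = 0.05, adjusted p = 0.15). Setd7, Phf2, Kdm1b, Dot1l, Suv39h1 and Suv420h2 had 1 kept probe each, so no such check could be made for them.

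The probes of Kdm4a and Nsd1 are shown because the direction of the call depends on them. Kdm4a probes 1 and 2 lie at chr4:117809639-117809698 and chr4:117814727-117814786 (minus strand). Nsd1 probe 1 lies at chr13:55419594-55419653 and probe 2 spans chr13:55335377-55340095, more than its own 60 bases (plus strand, mm9). What the annotation of that build places there was not analysed here. Each line gives the first 30 bases, 5′ to 3′.
Kdm4a probe 1: cttcataccttgctctgtatacaggagtca
Kdm4a probe 2: ccctgcagtccactgaaatatgcttatatc
Nsd1 probe 1: ggagccctgtgctaggagtccccataaaca
Nsd1 probe 2: actcaaaaatgaaagttgccaataggaggc

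**Figure D4:**
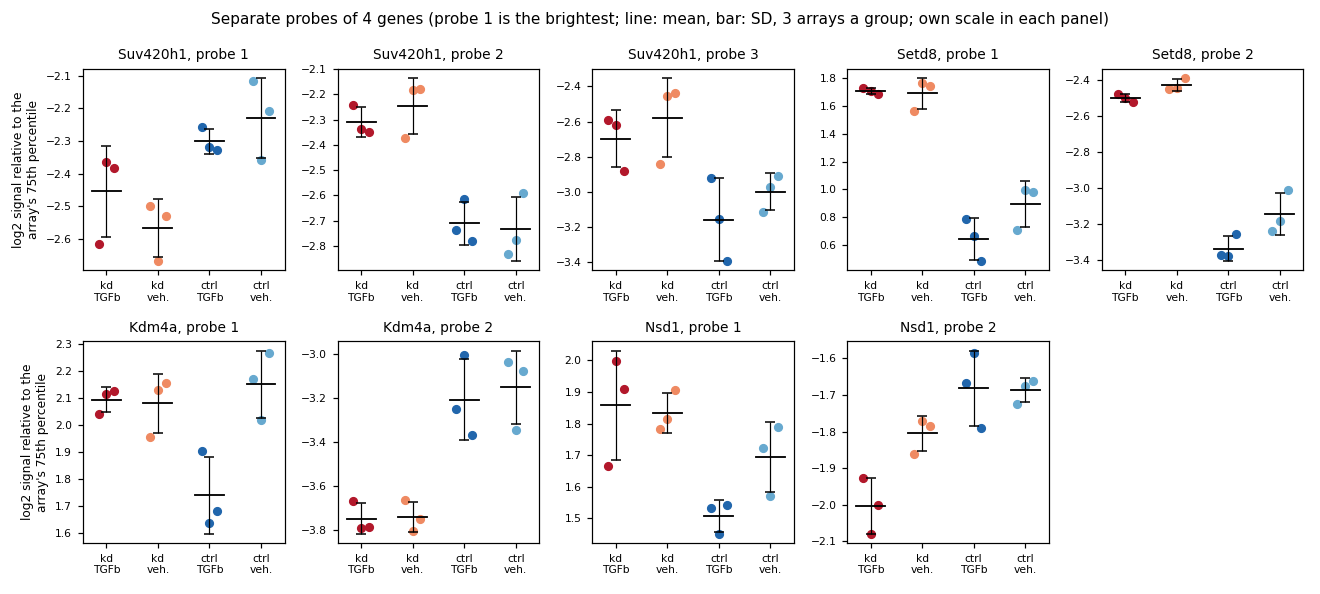
Log2 signal of the separate probes of Suv420h1, Setd8, Kdm4a and Nsd1 on each array, with group means (lines) and SD (bars) of 3 arrays and an own scale in each panel. Both Setd8 probes are higher in knockdown cells. Suv420h1 probe 1 is lower and its probes 2 and 3 are higher, and Kdm4a probe 2 is lower on all 6 knockdown arrays.

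In all, 20 of the 39 genes were called in no comparison. The share of all genes called in none is not given here, so this count is not read as a trait of the list. With slide as a block 4 of the 20 were called in at least 1: Kdm3a and Ehmt2 as given above, Kdm4c, which fell with knockdown under TGFb (-0.28 ± 0.05, adjusted p = 0.00271) and vehicle (-0.16 ± 0.05, adjusted p = 0.0323), and Setd1a, which fell with TGFb in control cells (-0.18 ± 0.05, adjusted p = 0.0469). Over all genes the slide block called 37% for knockdown with TGFb, 37.6% with vehicle and 12% for TGFb in control cells. Other alternatives called further genes of the 20. The mean of probes called Kdm2a for TGFb in both lines and Whsc1 for knockdown with TGFb, and array weights also called Whsc1 there. Without vehicle control replicate 1, Kdm1a was called for knockdown with vehicle. Log2 differences of the 20 genes for knockdown ran from -0.18 (Kdm4c) to 0.18 (Suv39h2) with TGFb. With vehicle they ran from -0.16 (Kdm4c) to 0.22 (Kdm7a). For TGFb they ran from -0.09 to 0.35 in knockdown and from -0.21 to 0.25 in control cells. The 20 genes include the lysine 9 methyltransferases Ehmt1, Ehmt2, Setdb1, Setdb2, Prdm2 and Suv39h2 and the lysine 4 demethylases Kdm1a, Kdm5a, Kdm5b and Kdm5c. The remaining ones are Kdm2a, Kdm3a, Kdm3b, Kdm4c, Kdm7a, Phf8, Setd1a, Setd2, Wdr5 and Whsc1. Their SE ran from 0.05 to 0.21, and differences well above the SE could still miss the threshold, such as Kdm3a with vehicle (0.19 ± 0.07, adjusted p = 0.0735).

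By their brightest probes, Ehmt1 and Suv39h2 had wide spreads that followed the slide. Ehmt1, which with Ehmt2 forms the dimethylating complex of lysine 9, was 2.54, 3.19 and 2.95 in knockdown cells with TGFb and 2.78, 2.35 and 2.50 with vehicle. In control cells it was 2.62, 2.69 and 3.28 with TGFb and 3.01, 2.55 and 2.53 with vehicle. The arrays on slides 1 and 4 were the high ones in each group. Deviations from the group means averaged 0.28 and 0.26 on slides 1 and 4 and -0.19 and -0.19 on slides 2 and 3. The residual SD was 0.30, and 0.09 with slide as a block. For Suv39h2, a paralogue of Suv39h1, these SDs were 0.22 and 0.12. The range of slide means, 0.47 for Ehmt1 and 0.34 for Suv39h2, compares with a median of 0.12 over the 39 genes and 0.18 over all genes. The other kept Ehmt1 probe was 0.46, 0.54 and 0.50 in knockdown cells with TGFb and 0.57, 0.64 and 0.86 in control cells with TGFb. With vehicle it was 0.45, 0.44 and 0.41 in knockdown cells and 0.93, 0.60 and 0.56 in control cells. By this probe no knockdown array reached the control range. Mean knockdown effects of -0.06 by the brightest and -0.23 by this probe were not shown to differ (exact permutation p = 0.21, adjusted p = 0.401).

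**Figure D5:**
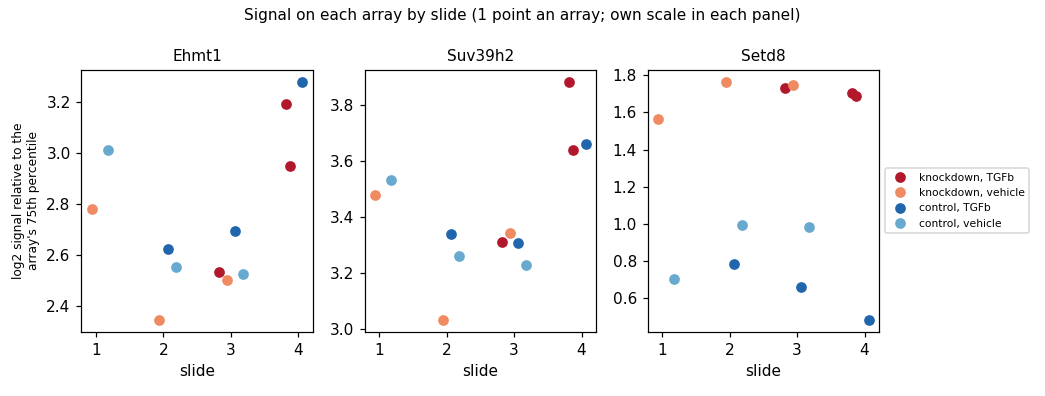
Log2 signal of Ehmt1, Suv39h2 and Setd8 by their brightest probes on each array against the slide it lay on (x axis), 1 point an array, coloured by group. Ehmt1 and Suv39h2 are high on slides 1 and 4 in all groups, while for Setd8 the knockdown arrays are above the control arrays on every slide.

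Other genes of the same systems were looked at as context. Of 24 further lysine methyltransferases and JmjC proteins, 3 rose and 10 fell in knockdown cells with TGFb, and 3 rose and 7 fell with vehicle. That is 54.2% and 41.7% called, beside 29% and 27.8% of all genes. Smyd4 (0.56 ± 0.05 under each treatment) and Jmjd8 (0.38 ± 0.09 and 0.58 ± 0.09) were the higher ones with the smallest adjusted p. Of the lower ones, Riox2, a JmjC histidine hydroxylase, was at -0.30 ± 0.04 with TGFb and -0.25 ± 0.04 with vehicle. Jmjd4 was at -0.38 ± 0.06 with TGFb, and Kmt2d, a lysine 4 methyltransferase of enhancers, at -0.45 ± 0.10 with vehicle. With TGFb 2 rose and 1 fell in knockdown cells, and 2 rose and none (0) fell in control cells, where 9.49% and 10.1% of all genes were called. Hr, a JmjC corepressor of hair follicles, rose by 0.84 ± 0.12 in knockdown and 1.30 ± 0.12 in control cells. Jmjd1c rose by 0.51 ± 0.06 and Setmar fell (-0.30 ± 0.07) in knockdown cells, and Jmjd4 rose by 0.29 ± 0.06 in control cells. The median log2 difference of these 24 genes for knockdown was -0.14 with TGFb and -0.11 with vehicle, against -0.01 and -0.02 over all genes.

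Of 25 partner proteins of these enzymes 3 rose and 4 fell in knockdown cells with TGFb, and 6 rose and 4 fell with vehicle. That is 28% and 40% called, beside 29% and 27.8% of all genes, so the first share is at the background. Rcor3, a CoREST protein of the Kdm1a complex, fell (-0.63 ± 0.08 and -0.45 ± 0.08), as did Mllt3, a partner of Dot1l in elongation complexes (-0.38 ± 0.07 and -0.41 ± 0.07). Phf21a, a reader of unmethylated lysine 4 in the Kdm1a complex, rose (0.55 ± 0.08 and 0.28 ± 0.08). Among the partners called higher, Men1 rose with TGFb (0.16 ± 0.05), and the deacetylase Hdac1 rose with vehicle (0.21 ± 0.06). With TGFb 2 partners rose and 1 fell in knockdown cells, namely Rcor2 (0.38 ± 0.07), Gse1 (0.55 ± 0.13) and Rcor3 (-0.32 ± 0.08). That is 12% called, beside 9.49% of all genes. In control cells Cbx5, the heterochromatin protein HP1 alpha, rose (0.21 ± 0.06) and Phf21a fell (-0.34 ± 0.08), which is 8% called, beside 10.1% of all genes.

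Of 8 arginine methyltransferases 2 fell with knockdown under each treatment and none (0) rose. These 25% lie near the 29% and 27.8% of all genes. They were Prmt5 (-0.27 ± 0.08) and Prmt6 (-0.29 ± 0.10) with TGFb, and Prmt1 (-0.32 ± 0.09) and Prmt6 (-0.34 ± 0.10) with vehicle. With TGFb 1 of 8 rose in each line. Prmt8, a membrane-bound enzyme of brain, was at -5.07 ± 0.22 with TGFb and -8.24 ± 0.59 with vehicle in knockdown cells (SD, n = 3). In control cells it was at -4.79 ± 0.09 with TGFb and -8.32 ± 0.51 with vehicle. It was well above background on all 6 arrays with TGFb, on 1 of 3 knockdown arrays with vehicle and on 2 of 3 control arrays with vehicle. It passed the filter only through the groups with TGFb, where it was high. Its call is therefore not read as a result, and no fold is given.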

How the data were processed

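The 12 samples were measured on Agilent mouse arrays read in 1 colour. Per the labels' protocols, each sample gave 500 ng of RNA, which was amplified with oligo-dT and labelled with Cy3. Agilent Feature Extraction 10.7.3.1 read the scans and placed probes on mm9, per the file headers. The deposited intensity used here is this software's background-corrected processed signal. The authors also deposited a table of log2 values with a median of 7.93 in each column. Its background correction and centring are not stated in any source used here. Each of its 12 columns matched its own array best, and it served as an alternative.

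Control and outlier spots were left out, and spots of a probe were averaged. From each log2 signal its array's 75th percentile over gene spots was subtracted. A probe was kept if at least 1 group had it well above background on 3 of 3 arrays (29972 of 39429 probes), and the kept probe with the highest mean stood for its gene. Of the probes, 26055 were named through a RefSeq table (GRCm38.p6) and 13374 by the file's name. The number of arrays limits precision: the median SE of a group difference was 0.10 on the log2 scale.

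Groups were fitted with limma 3.58.1 (R 4.3.3, lmFit and eBayes with a trend) over all 12 arrays, with 8 residual degrees of freedom. The 5 comparisons were two-sided, with Benjamini-Hochberg adjustment over 24149 genes and a threshold of 0.05. The script was tested on simulated data. Alternatives covered background correction, normalization, the filter, the probe rule, array weights, slide, replicate number, samples in the fit and each array left out.

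Arrays with the same replicate number mostly did not deviate together (r above 0.1 in 4 of 18 pairs). Vehicle arrays of both lines with the same number shared a slide, as did TGFb replicate 3 of both lines. There number and slide cannot be told apart, so the count does not settle whether the numbers pair the samples. The main fit used no pairing. Arrays on the same slide did (r from 0.18 to 0.58 in 12 pairs). The slides were not balanced for TGFb, as described with the TGFb comparisons. The 4 slides were scanned on 1 day.

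Every member is accounted for, and the 16 with the smallest adjusted p among those called get values for each array. Of each context list up to 2 called genes per direction and comparison are named. The members and the lists were chosen with earlier results of these data known.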

Additional observations from a re-analysis of the deposited data

How the results depend on the processing

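Of the 37 calls of single genes over the comparisons, 12 held in all 22 alternatives that kept the probe rule or averaged probes: the knockdown calls of Setd8, Setd7, Phf2, Kdm1b and Dot1l under both treatments, that of Suv39h1 with TGFb, and Dot1l with TGFb in control cells. Median scaling ended 19 of the 37, the authors' values 12, normexp 11, fits of only the groups compared 11, the replicate block 10 and the slide block 2, and 16 ended when at least 1 array was left out. The slide block also added 9 calls, giving 17 of 39 genes for knockdown under each treatment, where 37% and 37.6% of all genes were called with TGFb and with vehicle. No scaling reversed a call or moved the median of all genes by over 0.1.

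Scaling to the median left 9 genes of the list called for knockdown with TGFb, 7 with vehicle, and 0 and 2 for TGFb in knockdown and control cells. Over all genes it gave 4645, 3952, 1386 and 1516 calls, and 5 for the difference of responses. For TGFb in knockdown cells the mean of probes and array weights each gave 5 genes of the list, and array weights gave 3641 of all genes. For TGFb in control cells the fit of only the groups compared gave 3. Calls of the difference over all genes were 52 with array weights, 45 with slide as a block and 11 with the replicate block, which changed no count of the list by over 1.5 times. Of the calls for TGFb in knockdown cells 49.9% were higher, against 59.2% with normexp. For the difference 52.4% were higher, against 20% with median scaling, 42.3% with array weights and 40% in the authors' values.

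With 1 array left out, the list had 10 to 15 calls for knockdown with TGFb and 8 to 13 with vehicle, 1 to 3 for TGFb in knockdown and 3 to 6 in control cells, and 0 for the difference, where all genes gave 4 to 27, with 4 without vehicle control replicate 3 or TGFb knockdown replicate 3. The list had 8 calls for knockdown with vehicle without vehicle control replicate 2 or 3 or vehicle knockdown replicate 2. For TGFb it had 3 in control cells without vehicle control replicate 2 or 3, and 1 in knockdown cells without vehicle knockdown replicate 2 or TGFb knockdown replicate 2 or 3.

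By the mean of probes the knockdown value was -0.093 for Kdm4a and -0.075 for Whsc1l1 with TGFb and 0.19 for Suv420h1 with vehicle, each of the other sign. Other probes gave -0.54 (Kdm4a), -0.32 (Nsd1) and -0.68 (Whsc1l1) with TGFb and -0.014 (Whsc1l1), 0.49 and 0.42 (Suv420h1) and 0.030 (Smyd3) with vehicle. The cause was not tested.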
